A study of Mus musculus with 6 samples.

Results

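The 10 genes examined belong to a calcium-driven switch of cardiac gene expression: the calcium/calmodulin-dependent protein kinase II (CaMKII) genes Camk2a, Camk2b, Camk2d and Camk2g, the MEF2 transcription factor genes Mef2a, Mef2c and Mef2d, and the class IIa histone deacetylase genes Hdac4, Hdac5 and Hdac9. They were chosen by name, and each of the 10 had 1 probe set, identified by its NCBI Gene number, among the 20239 named probe sets of the series. The study measured RNA of heart ventricles from male mice of 3.5 weeks on the 129/Sv background with Affymetrix Mouse Gene 1.0 ST arrays. A group labelled Hspa4-/-, which lacks the Hsp70 nucleotide exchange factor Hspa4, was set against a group labelled Hspa4+/+, the wild type, with 3 arrays each and no other treatment. The labels state 3 mice per genotype, so an array was read as a mouse. The sources used here do not say how the Hspa4 allele was made or in which cells it acts.

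CaMKII is a multi-subunit kinase that calcium-bound calmodulin switches on, and Camk2d encodes its main form in heart muscle. Active CaMKII phosphorylates the class IIa deacetylases, which then bind 14-3-3 proteins and leave the nucleus. In the nucleus these deacetylases sit on MEF2 factors and hold their target genes down, so that the pathway couples calcium and workload to the genes of cardiac growth. Much of this control acts on the proteins, through phosphorylation and transport, which an RNA array does not measure.

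One array went against its label. Hspa4 read 9.33 on the array labelled Hspa4-/- replicate 1, close to the wild-type readings of 9.74, 9.50 and 9.48, whereas replicates 2 and 3 of that label read 6.63 and 6.75. Xist, which female cells express, read 7.68 on the same array and 5.51 to 5.69 on the remaining 5, all labelled male. Differences are therefore given with all 6 arrays and with the 5 that are left without that array. Array medians ran from 6.42 to 6.48 and SDs from 1.19 to 1.27 on the log2 scale, and with 3 arrays a group the precision of each value is limited. A level is a log2 value of 1 probe set and can be compared between arrays, not between genes.

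Of the 10 genes, Mef2a and Mef2c were the ones whose values lay below every wild-type value on all 3 arrays labelled Hspa4-/-, by 1.15-fold and 1.12-fold on average, and neither passed the test over all genes. The third MEF2 gene, Mef2d, did not share that pattern. Among the kinases and deacetylases, Hdac5 and Hdac4 read slightly higher on average, Camk2g and Camk2a exceeded their wild-type means by 0.15 to 0.23 on replicates 2 and 3 and differed from them by -0.06 and 0.03 on replicate 1, and Camk2b, Camk2d and Hdac9 had means within 0.04 of wild type on 6 arrays. With 6 arrays, 0 of the 10 genes had an adjusted p under 0.05 (limma, Benjamini-Hochberg over 20239 genes), against 0% of all genes. At an unadjusted p under 0.05 there were 2 of 10, Mef2a and Mef2c, where 11.2% of all genes reached that level. With 5 arrays, 0 of 10 passed, against 0.44% of all genes, and Mef2a alone had an unadjusted p under 0.05, where 14.9% of all genes did. The members' median difference was 0.07 with 6 arrays and 0.08 with 5, beside -0.01 and -0.02 over all genes.

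**Figure D1:**
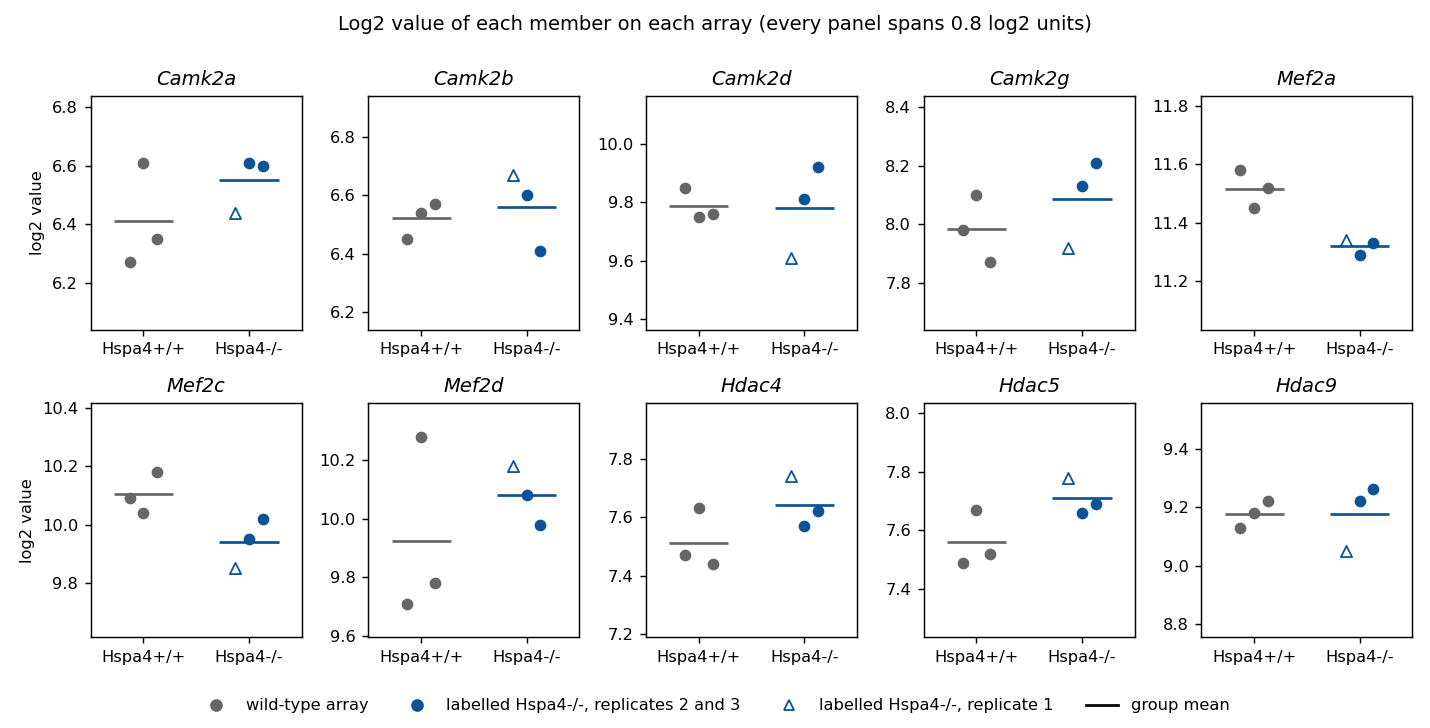
Log2 value (vertical axis, 0.8 log2 units in every panel) of each gene on the 3 wild-type arrays and the 3 arrays labelled Hspa4-/-; points are arrays, horizontal lines group means, and the open triangle is replicate 1 of the latter, whose Hspa4 level goes against its label. The groups separate for Mef2a (11.29 to 11.34 against 11.45 to 11.58) and Mef2c (9.85 to 10.02 against 10.04 to 10.18) and overlap for the other 8 genes.

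Camk2d, the main cardiac CaMKII gene, had nearly equal means in both groups. It read 9.61, 9.81 and 9.92 on the arrays labelled Hspa4-/- replicates 1 to 3 and 9.85, 9.75 and 9.76 in wild type. The arrays labelled Hspa4-/- spread on either side of the wild type: replicate 1 lay below all wild-type arrays and replicate 3 above all. The log2 difference was -0.01 with 6 arrays (SE 0.09, 95% interval -0.20 to 0.18, n = 3 per group; limma, adjusted p = 0.989) and 0.08 with 5 (SE 0.07, interval -0.09 to 0.24; limma, adjusted p = 0.680). The 6-array interval leaves room for a change of up to 1.15-fold. The probe set summarises the gene as a whole, so the nuclear and cytosolic splice forms of Camk2d cannot be told apart here.

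Camk2g, the second CaMKII gene known from heart muscle, read above every wild-type array on 2 of the 3 arrays labelled Hspa4-/-. It read 7.92, 8.13 and 8.21 there, in the order of the replicate numbers, and 7.98, 8.10 and 7.87 in wild type. With replicate 1 the groups overlapped, and without it they did not. The difference was 0.11 with 6 arrays (SE 0.09, interval -0.10 to 0.31; limma, adjusted p = 0.750). It was 0.19 with 5 (SE 0.08, interval -0.0003 to 0.38; limma, adjusted p = 0.335), a 1.14-fold higher mean that did not pass.

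Camk2a and Camk2b encode forms best known from brain, and the latter also from skeletal muscle. Camk2a read 6.44, 6.61 and 6.60 on the arrays labelled Hspa4-/- and 6.27, 6.61 and 6.35 in wild type, so that wild-type replicate 2 stood with the higher arrays. Its difference was 0.14 with 6 arrays (SE 0.10, interval -0.07 to 0.36; limma, adjusted p = 0.656) and 0.20 with 5 (SE 0.10; limma, adjusted p = 0.406). Without wild-type replicate 2 it was 0.24 and 0.30 (limma, adjusted p = 0.218 and 0.0698), which still did not pass. Those 2 settings called 112 and 875 of 20239 genes, where 0 and 89 were called with that array kept. Camk2b had no direction that held: it read 6.67, 6.60 and 6.41 against 6.45, 6.54 and 6.57, with a difference of 0.04 on 6 arrays and -0.02 on 5 (limma, adjusted p = 0.916 and 0.954). Lists of skeletal muscle genes (8 measured) and of neuron and Schwann cell genes (6 measured of 8 listed), which mark other sources of these 2 kinases, had a mean log2 level of 5.98 to 6.08 and 5.89 to 6.07 on the arrays labelled Hspa4-/- and 5.99 to 6.12 and 5.94 to 6.06 in wild type, with 0 genes called.

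The deacetylases carry the kinase signal to chromatin. Hdac5 read 7.78, 7.66 and 7.69 on the arrays labelled Hspa4-/- and 7.49, 7.67 and 7.52 in wild type. Only wild-type replicate 2 overlapped with the other group. The difference was 0.15 with 6 arrays (SE 0.07, interval -0.02 to 0.31; limma, adjusted p = 0.501) and 0.11 with 5 (SE 0.08; limma, adjusted p = 0.555).

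Hdac4 showed the same arrangement of arrays at a similar size. It read 7.74, 7.57 and 7.62 against 7.47, 7.63 and 7.44, and again wild-type replicate 2 lay among the arrays labelled Hspa4-/-. The difference was 0.13 with 6 arrays (SE 0.08, interval -0.05 to 0.31; limma, adjusted p = 0.604) and 0.08 with 5 (SE 0.08; limma, adjusted p = 0.695). For both genes the array labelled Hspa4-/- replicate 1, whose Hspa4 level is close to wild type, was the highest of all 6. The log2 difference Hdac4 minus Hdac5 stayed between -0.09 and -0.03 on every array.

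Hdac9, a class IIa gene that MEF2 is known to switch on as a feedback brake, had a mean of 9.18 in both groups with 6 arrays (SD 0.11 and 0.04, n = 3 each). It read 9.05, 9.22 and 9.26 on the arrays labelled Hspa4-/- and 9.13, 9.18 and 9.22 in wild type. The 95% interval of the difference ran from -0.17 to 0.17 (limma, adjusted p = 1), a change of up to 1.12-fold either way. Without replicate 1 both remaining arrays lay just above the wild type, the nearest readings being equal once rounded, with a difference of 0.06 (SE 0.07; limma, adjusted p = 0.726).

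**Figure D2:**
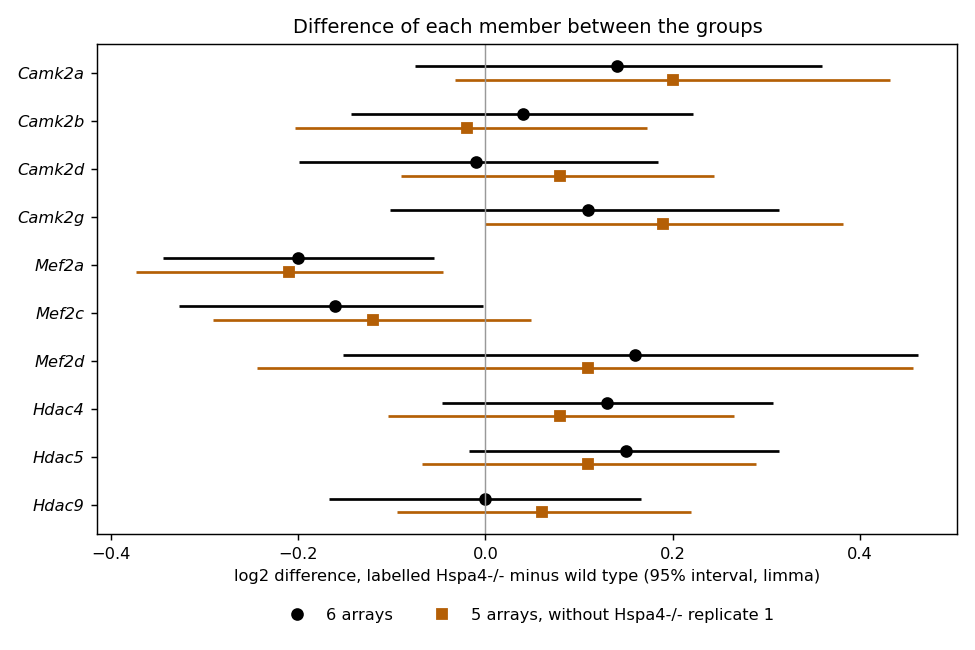
Log2 difference of each gene, the arrays labelled Hspa4-/- minus wild type (horizontal axis), with its 95% interval from limma; black points use 6 arrays and orange squares the 5 without replicate 1 of the former. The intervals of Mef2a exclude 0 in both forms before adjustment over all genes, that of Mef2c with 6 arrays only, and Mef2d has the widest interval in both forms (-0.15 to 0.46 with 6 arrays, -0.24 to 0.46 with 5).

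Mef2a, one of the MEF2 factors of adult heart muscle, was the member with the smallest p. Its log2 level read 11.34, 11.29 and 11.33 for the label Hspa4-/-, replicates 1 to 3, and 11.58, 11.45 and 11.52 on the wild-type arrays. Every array of the former group, replicate 1 included, lay below every wild-type array, with a spread (SD 0.03 and 0.06) smaller than the gap between the means. The difference was -0.20 with 6 arrays (SE 0.06, interval -0.34 to -0.06, 1.15-fold lower; limma, adjusted p = 0.292) and -0.21 with 5 (SE 0.07, interval -0.37 to -0.05; limma, adjusted p = 0.227). It did not pass under any setting tried on 6 arrays, where the adjusted p ran from 0.0947 with array weights to 0.814 without wild-type replicate 1 (limma).

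Mef2c, the MEF2 factor needed for early heart formation and also active in vessel lining and blood cells, was lower by a similar amount. It read 9.85, 9.95 and 10.02 on the arrays labelled Hspa4-/- and 10.09, 10.04 and 10.18 in wild type. The gap between the nearest arrays of the 2 groups was narrow, and the lowest reading of all was on replicate 1. The difference was -0.16 with 6 arrays (SE 0.07, interval -0.33 to -0.003; limma, adjusted p = 0.439) and -0.12 with 5 (SE 0.07, interval -0.29 to 0.05; limma, adjusted p = 0.495).

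Mef2d, whose forced expression in mouse hearts is known to drive their enlargement, varied more among the wild-type arrays than between the groups. It read 10.18, 10.08 and 9.98 on the arrays labelled Hspa4-/- and 9.71, 10.28 and 9.78 in wild type. Wild-type replicate 2 was the highest of all 6 arrays and the other wild-type arrays the lowest. The difference was 0.16 with 6 arrays (SE 0.14, interval -0.15 to 0.46; limma, adjusted p = 0.753) and 0.11 with 5 (SE 0.15; limma, adjusted p = 0.795). Without wild-type replicate 2 the groups separated and the difference was 0.33 on the remaining 5 arrays (SE 0.08, limma, adjusted p = 0.110). It was 0.29 without replicate 1 as well (SE 0.08, limma, adjusted p = 0.0871), so that wild-type replicate 2 decided the size. Those 2 settings called 112 and 875 of 20239 genes.

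Of the 10 members, 2 lay below the wild type without overlap with 6 arrays, Mef2a and Mef2c, where 9.07% of all genes did. None of the 10 lay above it, where 6.08% did. With 5 arrays, 2 of 10 lay below, the same genes, where 18.9% of all genes did, and 2 lay above, Camk2g and Hdac9, where 14.4% did. Read array by array, replicate 1 of the label Hspa4-/- had 3 members above all wild-type arrays (all genes, 26.5%) and 4 below (27.8%). Replicate 2 had 4 above (25.1%) and 2 below (30.2%), and replicate 3 had 4 above (24.9%) and 3 below (34.5%). Each of these counts lies within 2 genes of what the share over all genes gives for 10.

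**Figure D3:**
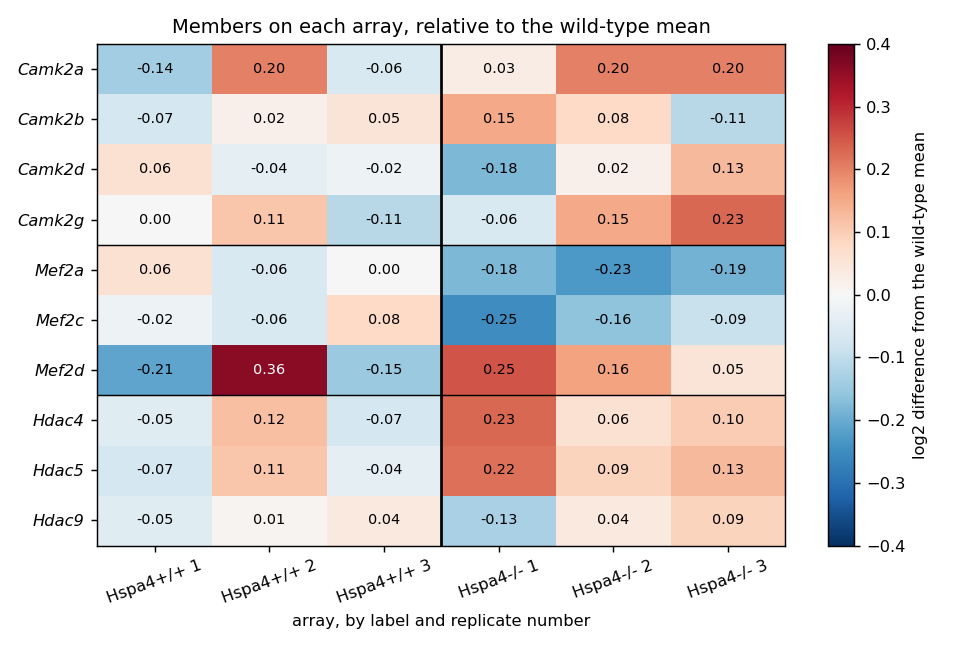
Log2 difference of each gene from its wild-type mean (colour and number in each cell) on each array, by label and replicate number, with lines between the kinase, MEF2 and deacetylase genes. Mef2a and Mef2c are below 0 on all 3 arrays labelled Hspa4-/- (-0.09 to -0.25), while Mef2d, Hdac4 and Hdac5 are above 0 on those arrays and also on wild-type replicate 2 (0.11 to 0.36).

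The relatives within a family were also set against each other, array by array. This removes a shift that is equal for both genes on an array, and no other array effect. Of 12 pairs, 0 separated the groups in either form, and with 6 arrays the smallest exact two-sided permutation p was 0.3, where 3 against 3 arrays cannot go below 0.1. The widest shift was in Mef2a minus Mef2d, which read 1.16, 1.21 and 1.35 on the arrays labelled Hspa4-/- and 1.87, 1.17 and 1.74 in wild type, a difference of -0.35 with 6 arrays and -0.32 with 5 (exact permutation p = 0.3 and 0.6). Again wild-type replicate 2 stood with the other group. Mef2a minus Mef2c differed by -0.04, and by -0.09 with 5 arrays (exact permutation p = 0.6 and 0.4), with an SD of 0.09 in the arrays labelled Hspa4-/- and 0.08 in wild type. Camk2d minus Camk2g was 1.69, 1.67 and 1.70 against 1.86, 1.65 and 1.89, a difference of -0.11 in both forms (exact permutation p = 0.4 and 0.6). Camk2b minus Camk2g differed by -0.07 with 6 arrays and -0.21 with 5 (exact permutation p = 1.0 and 0.6).

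The genes whose profile over the 6 arrays was most like a member's were found by the root mean square difference of log2 values, each taken relative to its wild-type mean. For Mef2d, the widest-ranging MEF2 gene, they were Mrpl4 (0.0233), E2f4 (0.0430) and Bag3 (0.0431), each with wild-type replicate 2 well above the other wild-type arrays. For Hdac4 they were Mib2 (0.0202), Plekhm2 (0.0219) and its own relative Hdac5 (0.0244). For Camk2g they were Ppp2cb (0.0195), Rest (0.0206) and Rtf2 (0.0285). This likeness covers 6 arrays and the 20239 genes less those with predicted or clone-based names, and is a description only.

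Since MEF2 factors and their deacetylase partners are known to act on one another's genes, the promoters of the members were searched for the MEF2 site. RefSeq windows of build GRCm38.p6, from 250 bases before to 50 after a start site, were at hand for 8 of the 10 genes, 11 windows in all. The site was searched as CTANNNNTAG, which reads the same on both strands. It occurred in 3 of the 11 windows, of Mef2a, Hdac5 and Hdac9, and in 3.69% of 32851 windows of all genes. With A or T at all 4 inner positions it occurred in 0.557% of all windows, and among the members in those of Mef2a and Hdac5. The heat shock element GAANNTTC and the cyclic AMP response element TGACGTCA, found in 7.86% and 1.79% of all windows, were in none of the 11. A match describes letters and shows no binding. The 3 windows with a match are printed with the matched letters in capitals, 5′ to 3′ along the gene. The Hdac9 match, CTAGCTTTAG, has letters other than A or T among its inner positions.
Mef2a (chr7:67372809-67373108, minus strand): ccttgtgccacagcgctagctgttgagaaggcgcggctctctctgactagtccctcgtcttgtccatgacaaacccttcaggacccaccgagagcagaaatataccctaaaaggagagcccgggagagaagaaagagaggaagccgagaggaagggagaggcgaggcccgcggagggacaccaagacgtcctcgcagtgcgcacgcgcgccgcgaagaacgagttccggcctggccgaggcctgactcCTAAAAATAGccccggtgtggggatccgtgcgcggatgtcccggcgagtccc
Hdac5 (chr11:102230123-102230422, minus strand): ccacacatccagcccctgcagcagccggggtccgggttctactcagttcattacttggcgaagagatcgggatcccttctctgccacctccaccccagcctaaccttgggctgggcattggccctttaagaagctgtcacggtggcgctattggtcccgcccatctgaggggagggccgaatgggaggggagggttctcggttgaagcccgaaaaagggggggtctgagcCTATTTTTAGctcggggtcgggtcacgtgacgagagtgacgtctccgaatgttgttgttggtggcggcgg
Hdac9 (chr12:34528840-34529139, minus strand): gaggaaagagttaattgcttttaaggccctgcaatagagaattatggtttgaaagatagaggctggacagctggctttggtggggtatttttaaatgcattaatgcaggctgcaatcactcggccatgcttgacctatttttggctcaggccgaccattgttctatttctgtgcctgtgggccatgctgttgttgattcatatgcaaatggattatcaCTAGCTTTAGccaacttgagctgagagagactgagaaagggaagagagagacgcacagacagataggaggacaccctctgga
The match begins 2 bases before the annotated start in Mef2a, 20 before in Hdac5 and 32 before in the Hdac9 window shown. That window is 1 of 2 for Hdac9. Which start the ventricle uses was not measured. Of these 3 genes, Mef2a lay lower on the arrays labelled Hspa4-/-, Hdac5 higher on average, and Hdac9 had equal means, and none passed.

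The rest of the pathway was read through 7 lists of 80 genes, 75 distinct genes of them measured. With 6 arrays 0 of the 75 passed (limma), and 19, or 25.3%, had an unadjusted p under 0.05, where 11.2% of all genes did. With 5 arrays 2 passed, both higher, which is 2.67% beside 0.44% of all genes, and 24, or 32.0%, had an unadjusted p under 0.05, where 14.9% of all genes did. These were Nppa and Acta1, both in the list of known MEF2 targets and both known to rise in stressed hearts. The lists were written with earlier results of these data known, so they are no independent evidence of a direction.

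Among the genes upstream of the switch, calmodulin and the relatives of CaMKII gave 0 calls of 10 measured genes in both forms, with a median difference of 0.03 with 6 arrays and 0.02 with 5. Camkk2, which activates other calmodulin-dependent kinases, read 6.57, 6.57 and 6.53 against 6.36, 6.38 and 6.50 (difference 0.14 in both forms; limma, adjusted p = 0.457 with 6 arrays and 0.424 with 5). Calm2, one of the calmodulin genes, differed by -0.14 and -0.16 (limma, adjusted p = 0.561 and 0.431). Other kinases of the class IIa deacetylases had 0 calls of 10, with medians of 0.09 and 0.04. Of the 3 protein kinase D genes, Prkd1 overlapped between the groups (difference 0.07 with 6 arrays and 0.10 with 5), and the other genes lay apart in opposite directions. Prkd2 read 7.06, 7.08 and 6.96 against 6.72, 6.88 and 6.77 (difference 0.24, and 0.23 with 5 arrays; limma, adjusted p = 0.264 and 0.228). Prkd3 read 7.85, 8.03 and 8.13 against 8.25, 8.19 and 8.32 (difference -0.25, and -0.18 with 5 arrays; limma, adjusted p = 0.296 and 0.317).

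Partners of the deacetylases had 0 calls of 9, with medians of 0.07 and 0.06. The fourth class IIa gene, Hdac7, best known from endothelial cells, read 7.83, 7.44 and 7.68 on the arrays labelled Hspa4-/- and 7.06, 7.47 and 7.14 in wild type. Its arrangement was that of Hdac4 and Hdac5, with wild-type replicate 2 the only array that overlapped, and its difference was 0.42 with 6 arrays (SE 0.12; limma, adjusted p = 0.266) and 0.33 with 5 (SE 0.13; limma, adjusted p = 0.265). Without wild-type replicate 2 and replicate 1 of the other label it was 0.46 and passed, with 2 arrays a group (limma, adjusted p = 0.0371). That setting called 875 of 20239 genes, against 89 with the 5 arrays. Ywhae, which encodes a 14-3-3 protein, differed by 0.16 with 6 arrays and 0.21 with 5 (limma, adjusted p = 0.508 and 0.28).

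Cofactors and regulators of MEF2 had 0 calls of 10, with medians of 0.09 and 0.08. Cabin1, which encodes a repressor that holds MEF2 and calcineurin inactive, was higher without overlap: it read 7.72, 7.62 and 7.85 against 7.24, 7.42 and 7.34. The difference was 0.39 with 6 arrays (SE 0.08; limma, adjusted p = 0.210) and 0.40 with 5 (SE 0.09; limma, adjusted p = 0.0986). Myocd, the myocardin gene, differed by 0.29 and 0.37 (limma, adjusted p = 0.358 and 0.178). In the same setting of 2 arrays a group, with 875 genes called, Cabin1 (0.44) and Myocd (0.48) also passed (limma, adjusted p = 0.0402 and 0.0249).

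**Figure D4:**
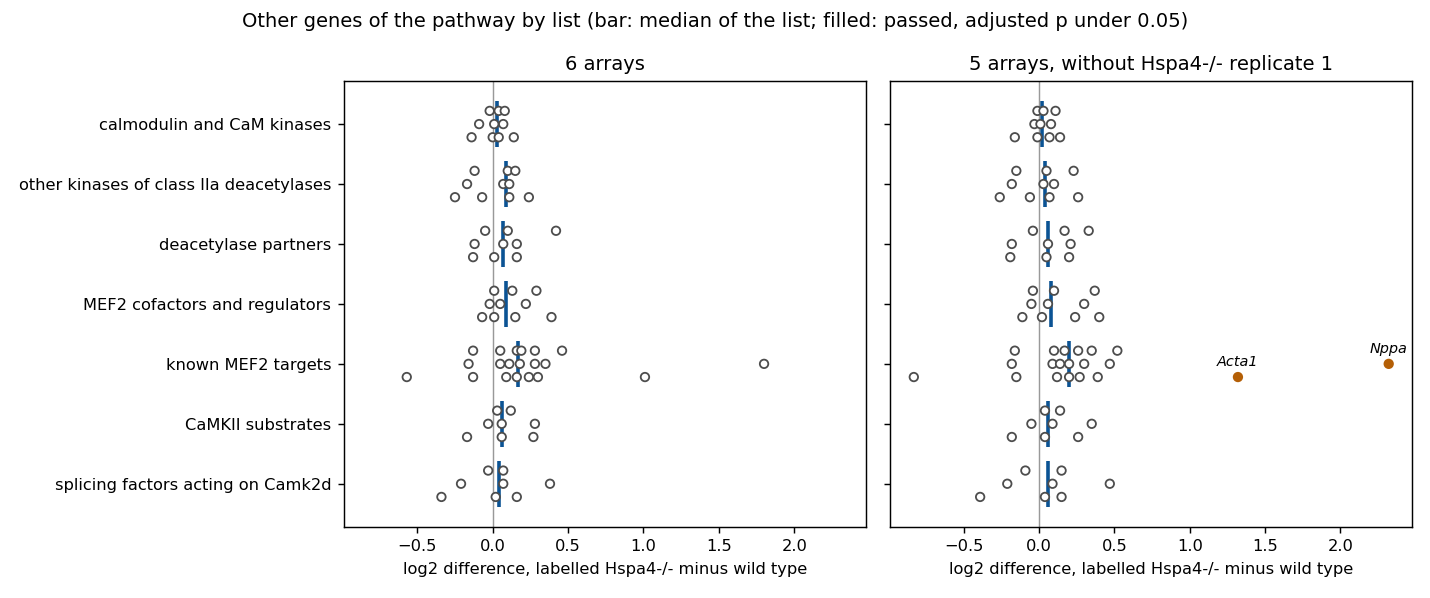
Log2 difference (horizontal axis), the arrays labelled Hspa4-/- minus wild type, of each measured gene in 7 pathway lists (rows), with 6 arrays at left and 5 at right; the vertical bar is the median of the list and filled points passed. Medians run from 0.02 to 0.20, and the 2 filled points at right are Acta1 (1.32) and Nppa (2.32).

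The known MEF2 targets had the highest median of the 7 lists, 0.17 with 6 arrays and 0.20 with 5, beside -0.01 and -0.02 over all genes. Of 20 measured targets, 0 passed with 6 arrays. Without overlap between groups, 5 lay higher, where 6.08% of all genes did, and 1 lower, where 9.07% did. With 5 arrays, 10 lay higher and 3 lower, where 14.4% and 18.9% of all genes did. With 6 arrays those higher were Nppa, Des, Xirp1, Myl2 and Ckm, and the lower one was Ppargc1a. Myl2 and Myh6 are also among the cardiomyocyte markers, whose mean level was 11.74 to 11.82 on the arrays labelled Hspa4-/- and 11.57 to 11.63 in wild type, and the part of that level in the result was not tested. With 5 arrays 2 of 20 rose and 0 fell in the test over all genes, where 0.44% of all genes were called. Nppa read 9.43, 10.52 and 11.49 against 8.62, 8.94 and 8.50. Its difference was 1.80 with 6 arrays (SE 0.40, limma, adjusted p = 0.213). With 5 arrays it was 2.32 (SE 0.24, n = 2 against 3, limma, adjusted p = 0.0127). Acta1 read 9.10, 10.25 and 9.85 against 8.56, 9.11 and 8.51. The difference was 1.01 with 6 arrays (SE 0.26, limma, adjusted p = 0.239) and 1.32 with 5 (SE 0.18, limma, adjusted p = 0.0310). Both calls rest on few arrays: with 1 more array left out, the adjusted p of Nppa was 0.0909 without wild-type replicate 1 and 0.144 without wild-type replicate 3, and that of Acta1 ran up to 0.214 (limma). With all 5 arrays kept and each array median subtracted, Acta1 differed by 1.33 and did not pass (limma, adjusted p = 0.0568).

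Among known CaMKII substrates 0 of 8 passed, with a median of 0.06 in both forms. Without overlap between groups, 4 of 8 lay higher with 6 arrays, where 6.08% of all genes did, and 1 lower, where 9.07% did. Those higher were Ryr2, Pln, Cacna1c and Mybpc3, and the lower one was Cacnb2. With 5 arrays, 4 lay higher and 2 lower, where 14.4% and 18.9% of all genes did. Ryr2, Pln and Ttn of this list are also among the cardiomyocyte markers. The L-type calcium channel genes read opposite ways, each without overlap. Cacna1c, the pore subunit, was 10.46, 10.43 and 10.43 against 10.13, 10.23 and 10.17 (difference 0.27, SE 0.06, and 0.26 with 5 arrays; limma, adjusted p = 0.221 and 0.141). Cacnb2, its beta subunit, was 9.91, 9.90 and 9.87 against 10.03, 10.07 and 10.11 (difference -0.17, SE 0.06, and -0.18 with 5 arrays; limma, adjusted p = 0.329 and 0.258). For both genes replicate 1 grouped with replicates 2 and 3.

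The list of splicing factors taken to act on Camk2d gave 0 calls of 8, with medians of 0.04 and 0.06. With 6 arrays 2 of the 8 lay higher without overlap, Rbm20 and Rbm24, where 6.08% of all genes did. Another 2, Srsf1 and Srsf10, lay lower without overlap, where 9.07% did. With 5 arrays 3 lay higher and 2 lower, where 14.4% and 18.9% of all genes did. Rbm20, the titin and Camk2d splicing factor whose loss causes cardiomyopathy, read 9.71, 9.87 and 10.09 against 9.54, 9.52 and 9.46. Its difference was 0.38 with 6 arrays (SE 0.09; limma, adjusted p = 0.227) and 0.47 with 5 (SE 0.08; limma, adjusted p = 0.0588). Over the alternatives tried with 5 arrays its adjusted p ran from 0.0302 without wild-type replicate 2 to 0.263 without replicate 3 of the label Hspa4-/- (limma), so that it passed under some and not under others. Srsf10 read 8.03, 7.71 and 8.06 against 8.47, 8.27 and 8.09 (difference -0.34, SE 0.12, and -0.39 with 5 arrays; limma, adjusted p = 0.322 and 0.221).

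Markers of the cells that a ventricle holds were read beside these results. The ventricular cardiomyocyte markers, given above, had 9 of 9 differences above 0 and 0 called. The mean log2 level of 5 macrophage markers was 7.46 to 7.53 against 7.69 to 7.74, with 0 of 5 differences above 0 and 0 called. Endothelial (5 genes) and fibroblast (6 genes) levels overlapped, at 9.12 to 9.37 against 9.09 to 9.18 and 8.32 to 8.50 against 8.34 to 8.44. Atrial markers (4 genes) overlapped at 6.81 to 6.97 against 6.68 to 6.87, with 4 of 4 differences above 0 and 0 called. Lymphocyte (4 genes) and erythroid (3 genes) levels also overlapped, at 5.95 to 6.13 against 6.05 to 6.20 and 6.29 to 6.47 against 6.40 to 6.57. The smooth muscle and pericyte markers (6 genes) had a mean level of 7.99, 8.19 and 8.24 on the arrays labelled Hspa4-/- and at most 8.09 in wild type. Without replicate 1 that mean separated the groups, with 6 of 6 differences above 0. Of these, 4 lay higher without overlap, where 14.4% of all genes did, and 0 were called. The cardiomyocyte markers had 5 of 9 higher without overlap with 6 arrays (all genes, 6.08%) and 6 of 9 with 5. Of the macrophage markers, 4 of 5 lay lower without overlap in both forms, where 9.07% and 18.9% of all genes did. In whole ventricle RNA, fewer cells of a type and less RNA per cell cannot be told apart, and the part of cell makeup in the values of Mef2a, Mef2c, Hdac7, Nppa and Acta1 was not tested.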

How the data were processed

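The authors deposited 1 log2 value per probe set and array. The submitters' processing notes name affy and R 2.13.0. Which background correction, normalisation and summary they used is not stated in the sources at hand, so differences may carry that choice. Of 21225 probe sets, 20239 had 1 gene symbol in the platform annotation, 986 had none and 0 several. Groups came from the labels. Values were used as deposited in a 2-group model across all genes with limma 3.58.1 in R 4.3.3 (lmFit, eBayes), with Benjamini-Hochberg adjustment over 20239 genes, a threshold of 0.05 and 95% intervals, and no filter. The script was tested on simulated data. Pairs of relatives were compared by exact permutation.

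Members and lists were chosen with earlier results of these data known. Of each list, genes called in either form were named (up to 5), otherwise the 2 with the smallest p. The likeness rule named 3 genes for the widest-ranging member of each family, leaving out predicted and clone-named genes. Genes set beside these in the MEF2 target, CaMKII substrate and splicing factor lists were named for lacking overlap, after their values were seen. Alternatives were quantile normalisation, subtracted array medians, low-value filters, array weights, a trended robust prior, the replicate number as a block and leaving out each array.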

Additional observations from a re-analysis of the deposited data

How the results depend on the processing

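No member passed under any alternative: the count of members called was 0 with 6 arrays and with 5 in each of 7 other settings and without each array (limma; 2 and 1 members had an unadjusted p under 0.05 in the fits as reported). Of 130 member values recomputed on 6 arrays 122 kept their sign, and of 120 on 5 arrays 117 did. Those that turned lay near 0: with array weights Camk2d (0.01), Hdac9 (0.04) and, on 5 arrays, Camk2b (0.00), and on leaving out arrays Camk2b (-0.02 to 0.11 on 6, -0.11 to 0.08 on 5), Camk2d (-0.08 to 0.08), Hdac9 (-0.04 to 0.06) and the pair Camk2b minus Camk2d (-0.09). All 10 members passed the low-value filters. The count over all genes moved widely. From 0 on 6 arrays it went to 115 with array weights, 2 with either filter and 2 with the replicate block, and 0 to 112 on leaving out an array. From 89 on 5 arrays it went to 36 with subtracted medians, 321 with array weights, 156 and 167 with the filters, 134 with the replicate block, and 2 to 875 on leaving out an array. The causes were not tested. Where an arm kept 1 array, it was assumed to vary like the others. The replicate numbers did not pair the arrays: deviations of same-numbered arrays correlated at -0.17, 0.09 and -0.25, and under the replicate block Mef2a differed by -0.20 on 6 arrays (limma, adjusted p = 0.413). Pseudocounts were not run, since the values are log2. The table gives no background, so signal over background is unknown.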
